A study of Mus musculus with 6 samples.

Results

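Phospholipid phosphatases and lipins dephosphorylate phosphatidate and related lipid phosphates, and 8 genes of these families were followed in single germinal vesicle (GV) oocytes of the mouse. They were 5 phospholipid phosphatase genes (*Plpp1*, *Plpp2*, *Plpp3*, *Plpp5* and *Plpp6*) and 3 lipin genes (*Lpin1*, *Lpin2* and *Lpin3*), found by symbol among the 17577 genes listed for each library. *Plpp1* was taken because it was among the largest decreases between the genotypes, so its difference is given as a description with no test, and the other 7 genes were taken as its paralogs or as lipins of the same reaction. Oocytes came from ovaries of 12-week-old C57BL/6 J mice that had received pregnant mare serum gonadotropin (PMSG). The *Bnc1*tr/tr group (3 libraries) carries, on both chromosomes, a frameshift allele that truncates basonuclin 1, a zinc finger protein of germ cells and keratinocytes, and the wild-type (WT) group has 3 libraries. The allele is a germline one, so the somatic cells of the follicle carry it as well as the oocyte. The study compared littermates and called its replicates biological. The labels do not say whether the libraries of a group came from separate animals, so p-values measure the spread between these libraries.

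Levels are in FPKM, the fragments of a gene divided by its transcript length in kb and by the mapped fragments of the library in M (mega), a unit that allows levels of genes of different length to be set side by side. FPKM totals per library were 657550 to 724550. The low FPKM values fall on steps of single fragments, which put the depth at 14.9, 16.2 and 21.5 M fragments in the WT and at 13.0, 17.0 and 17.2 M fragments in the *Bnc1*tr/tr libraries, where 3 fragments on 1 kb equal 0.139 to 0.230 FPKM. WT libraries had 14346 ± 389 genes above 0 FPKM and *Bnc1*tr/tr libraries 15540 ± 251 (SD, n = 3 each), with no overlap between the groups (exact two-sided permutation p = 0.10, the smallest that 3 against 3 allows). Amplified cDNA fragments are not independent molecules, so limits from counts cover counting error only. In a single amplified oocyte, a lower share of a transcript and a lower total of RNA cannot be told apart. All 12 oocyte markers were above the filter on low values, and their summed level was 7965 to 8577 FPKM in *Bnc1*tr/tr and 6711 to 10818 FPKM in WT libraries. Of the 12, *Dazl* was called higher (log2 fold change 0.84) and *Zp2* and *Nlrp5* lower in *Bnc1*tr/tr (log2 fold changes -0.74 and -0.62, limma adjusted p = 0.0035, 0.032 and 0.026 in this order).

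*Bnc1* itself was at 9.04, 6.51 and 5.83 FPKM in *Bnc1*tr/tr and at 13.17, 12.54 and 16.23 FPKM in WT oocytes. The mutant libraries were all below the WT libraries, by 0.89 on the log2(FPKM + 1) scale (limma, SE 0.20, Benjamini-Hochberg adjusted p = 0.0090), so transcripts of the truncated allele were still measured.

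Phosphatidate stands at a branch of glycerolipid metabolism. Removal of its phosphate gives diacylglycerol, the precursor of triacylglycerol, phosphatidylcholine and phosphatidylethanolamine, whereas its activation with CTP leads to phosphatidylinositol and cardiolipin. Lipins are soluble, magnesium-dependent enzymes that move onto the endoplasmic reticulum membrane and carry out the step of *de novo* synthesis. Phospholipid phosphatases are integral membrane proteins whose active site faces the outside of the cell or the lumen, and they also hydrolyse lysophosphatidate, sphingosine 1-phosphate and ceramide 1-phosphate. Growing oocytes store neutral lipid in droplets and rely on fatty acid oxidation during maturation.

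The families use unrelated catalytic sites. Short coding stretches around them, read from GENCODE M21 transcripts, are shown for 7 of the 8 genes because they separate the members into the groups used below. In the phospholipid phosphatases *Plpp1*, *Plpp2*, *Plpp3* and *Plpp6* the capitals mark the codons of the serine-glycine-histidine triplet of the active site.
Plpp1: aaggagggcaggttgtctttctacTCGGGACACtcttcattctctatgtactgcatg
Plpp2: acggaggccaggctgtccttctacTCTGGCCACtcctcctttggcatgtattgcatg
Plpp3: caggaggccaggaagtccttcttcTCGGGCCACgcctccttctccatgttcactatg
Plpp6: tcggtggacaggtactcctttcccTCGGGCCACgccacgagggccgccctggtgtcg
In the lipins the capitals mark the codons of the run with the catalytic aspartates.
Lpin1: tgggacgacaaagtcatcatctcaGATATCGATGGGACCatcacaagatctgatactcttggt
Lpin2: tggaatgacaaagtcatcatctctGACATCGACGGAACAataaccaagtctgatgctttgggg
Lpin3: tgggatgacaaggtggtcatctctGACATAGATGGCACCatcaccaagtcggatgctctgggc

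The stretches begin at coding base 484 in *Plpp1*, 469 in *Plpp2*, 568 in *Plpp3*, 601 in *Plpp6*, 2110 in *Lpin1*, 2146 in *Lpin2* and 1927 in *Lpin3*. Whole coding sequences were 780 to 936 bases long in the phospholipid phosphatases and 2574 to 2793 bases in the lipins. Aligned coding bases were 58.8% to 65.3% identical between pairs of phospholipid phosphatases and 67.5% to 68.1% between pairs of lipins. *Plpp1* was 63.9% identical to *Plpp2*, 60.8% to *Plpp3* and 58.8% to both *Plpp5* and *Plpp6*. Stretches identical to transcripts of other genes made up 24.2% of *Plpp1*, 6.08% of *Plpp6* and at most 3.36% of each of the other 6 genes, and the gene that shared most was in no case another of the 8.

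*Plpp1* has 2 annotated mRNAs that differ in their second exon. Both versions are printed because the deposited values are per gene and do not separate them, so the *Plpp1* level below is that of both together.
Plpp1-201, chr13:112834859-112835013 (GRCm38, plus strand, 155 bases): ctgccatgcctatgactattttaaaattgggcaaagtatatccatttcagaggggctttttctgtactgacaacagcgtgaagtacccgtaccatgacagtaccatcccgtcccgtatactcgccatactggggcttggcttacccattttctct
Plpp1-202, chr13:112851403-112851554 (GRCm38, plus strand, 152 bases): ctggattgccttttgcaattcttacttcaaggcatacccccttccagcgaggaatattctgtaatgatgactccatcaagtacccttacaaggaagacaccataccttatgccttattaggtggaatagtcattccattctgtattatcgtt
Over 139 aligned bases, 94 (67.6%) were identical between them.

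*Plpp1* (Gene ID 19012, chr13:112800777-112867894, plus strand) encodes a plasma membrane phosphatase that acts on lipid phosphates outside the cell. Its level was 150.10, 177.45 and 205.15 FPKM in WT replicates 1 to 3 and 21.39, 39.51 and 46.90 FPKM in *Bnc1*tr/tr replicates 1 to 3. The highest mutant library was far below the lowest WT library, and *Bnc1*tr/tr replicate 1 was the lowest of all. The mean was 178 ± 27.5 FPKM (SD, n = 3) in WT and 35.9 ± 13.1 FPKM (SD, n = 3) in *Bnc1*tr/tr oocytes, 4.94-fold higher in WT, and the difference was -2.33 on the log2(FPKM + 1) scale. The median difference of all 10560 tested genes was 0.15 on the same scale, and *Plpp1* was at -2.48 relative to it. Of the tested genes, 5 had a lower difference than *Plpp1*, the pattern for which it was chosen. Its rank among all listed genes was 782 in WT and 2738 in *Bnc1*tr/tr oocytes. Leaving out any 1 library, and all other alternatives tried, gave differences from -2.60 to -2.01.

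The last exon of *Plpp1* overlaps *Mtrex*, an RNA helicase gene on the opposite strand, over 452 bases or 25.8% of the exon bases of *Plpp1*. Libraries of this kind do not mark strand, so fragments of this stretch cannot be assigned to either gene by their orientation. *Mtrex* was at 15.70, 15.58 and 14.17 FPKM in WT and at 16.00, 17.08 and 13.96 FPKM in *Bnc1*tr/tr libraries. These ranges overlapped, and the log2 difference was 0.04 (limma adjusted p = 0.87). Its levels were below those of *Plpp1* in every library, but came closest in *Bnc1*tr/tr replicate 1, at 16.00 against 21.39 FPKM. The part of *Mtrex* fragments in the *Plpp1* levels was not tested, so the *Bnc1*tr/tr levels and the 4.94-fold ratio are uncertain.

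*Plpp5* (Gene ID 71910, chr8:25720043-25724887), which encodes a phosphatase known for its activity on diacylglycerol pyrophosphate as well as phosphatidate, went the other way. It was at 130.40, 117.87 and 92.59 FPKM in WT and at 216.82, 174.66 and 193.51 FPKM in *Bnc1*tr/tr oocytes. All mutant libraries were above all WT libraries. The mean rose 1.72-fold, from 114 ± 19.3 to 195 ± 21.1 FPKM (SD, n = 3 each). The log2 fold change was 0.78 with a 95% interval from 0.36 to 1.21 (limma adjusted p = 0.012). *Plpp5* stayed called under all 14 alternatives, with log2 fold changes from 0.51 to 0.89 and adjusted p from 0.0064 to 0.048 by limma.

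*Plpp3* (Gene ID 67916, chr4:105157347-105232767), a cell surface phosphatase that ends lysophosphatidate signals in vessels and the embryo, was at 26.71, 23.86 and 14.81 FPKM in WT and at 17.64, 21.33 and 18.23 FPKM in *Bnc1*tr/tr oocytes. All mutant values lay inside the range of the WT values. The log2 difference was -0.15 with a 95% interval from -0.67 to 0.37 (limma adjusted p = 0.66), so a change the size of that of *Plpp5*, in either direction, lay outside the interval. Without WT replicate 1 the difference was 0.01.

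*Plpp2* (Gene ID 50784, chr10:79526424-79533787, minus strand), the other member of the broad-specificity subgroup, was low. It was at 4.02, 1.48 and 1.42 FPKM in WT and at 2.26, 2.03 and 1.49 FPKM in *Bnc1*tr/tr oocytes. WT replicate 1 was the highest, and the other 5 libraries were between 1.42 and 2.26 FPKM. The log2 difference was -0.10 with a 95% interval from -0.74 to 0.55 (limma adjusted p = 0.83), and it was 0.25 without WT replicate 1.

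*Plpp6* (Gene ID 74411, chr19:28963920-28966801), which encodes a phosphatase of isoprenoid diphosphates such as presqualene diphosphate, was at 2.31, 1.55 and 2.64 FPKM in WT and at 4.96, 3.06 and 3.10 FPKM in *Bnc1*tr/tr oocytes. The groups did not overlap, but the difference did not pass the test. Its log2 value was 0.56 with a 95% interval from 0.07 to 1.06 (limma adjusted p = 0.079). A gene on the opposite strand, 4430402I18Rik, shares 202 exon bases (7.1%) with *Plpp6*, and its log2 difference was -0.40 (limma adjusted p = 0.31).

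**Figure D1:**
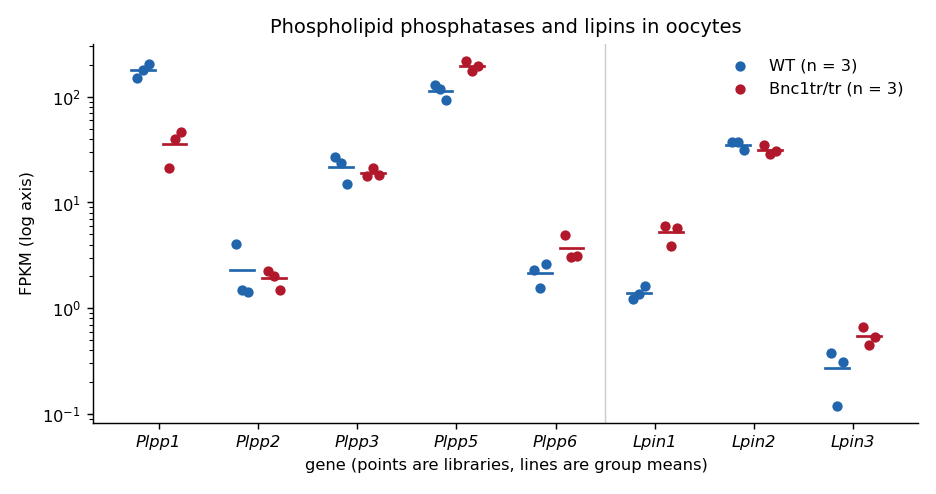
FPKM of the 8 genes on a log axis, with a point for each library (3 WT in blue, 3 Bnc1tr/tr in red) and a line at each group mean. Plpp1 lay between 150.1 and 205.15 FPKM in WT and between 21.39 and 46.9 FPKM in Bnc1tr/tr, whereas Plpp5, Plpp6, Lpin1 and Lpin3 lay higher in every Bnc1tr/tr library than in any WT library.

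*Lpin1* (Gene ID 14245, chr12:16535669-16653903, minus strand), the lipin best known for triacylglycerol synthesis in adipose tissue and for a second role as a transcriptional coactivator, had the largest increase of the 8 genes. It was at 1.22, 1.37 and 1.62 FPKM in WT and at 6.03, 3.88 and 5.76 FPKM in *Bnc1*tr/tr oocytes. The lowest mutant library was above the highest WT library. The mean rose 3.72-fold, from 1.40 ± 0.202 to 5.22 ± 1.17 FPKM (SD, n = 3 each), with a log2 fold change of 1.36 and a 95% interval from 0.92 to 1.79 (limma adjusted p = 8.2e-04). It stayed called in the 13 alternatives that tested it, with log2 fold changes from 0.93 to 1.81, and it was left out by a minimum mean of 5 FPKM.

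*Lpin2* (Gene ID 64898, chr17:71183532-71249818), the lipin of liver, brain and macrophages, was the most abundant lipin in every library. It was at 37.30, 37.37 and 31.10 FPKM in WT and at 35.33, 28.57 and 30.73 FPKM in *Bnc1*tr/tr oocytes. The groups overlapped, and the log2 difference was -0.16 with a 95% interval from -0.54 to 0.23 (limma adjusted p = 0.52). The whole interval of *Lpin2* lay below that of *Lpin1*.

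*Lpin3* (Gene ID 64899, chr2:160880670-160906000), which is expressed mainly in intestine and liver, was at 0.38, 0.12 and 0.31 FPKM in WT and at 0.67, 0.45 and 0.53 FPKM in *Bnc1*tr/tr oocytes. Its mean was under 1 FPKM, so it was not tested. On its longest transcript of 3470 bases these levels were about 6.4 to 21.8 fragments in WT and 24.8 to 29.7 fragments in *Bnc1*tr/tr libraries, above the 0.0427 to 0.0704 FPKM that 3 fragments give. The groups did not overlap. Without the filter its log2 difference was 0.29 (limma adjusted p = 0.13), a scale on which the pseudocount of 1 is larger than the levels.

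Of the 7 genes other than *Plpp1*, 6 passed the filter on low values, and 2 of them (*Plpp5* and *Lpin1*) were called, both higher in *Bnc1*tr/tr, where a call required an adjusted p from limma under 0.05 together with a log2 difference beyond 0.5 in either direction. Of all 10560 tested genes 31.8% were called, 24.1% higher and 7.68% lower, so 2 calls among 6 genes is close to the background and is no result about the families as a whole. In 3 of the 6 tested genes, all higher, mutant and WT values were separate, beside 46.8% of all tested genes (32.7% higher and 14.1% lower). The median log2 difference of the 6 genes was 0.23, beside 0.15 over all tested genes. What set *Plpp1* apart from *Plpp2*, *Plpp3*, *Plpp5* and *Plpp6* was the size of its decrease, and this was the property used to select it. The differences of *Plpp2* and *Plpp3* were also below 0 (-0.10 and -0.15), but were not called.

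**Figure D2:**
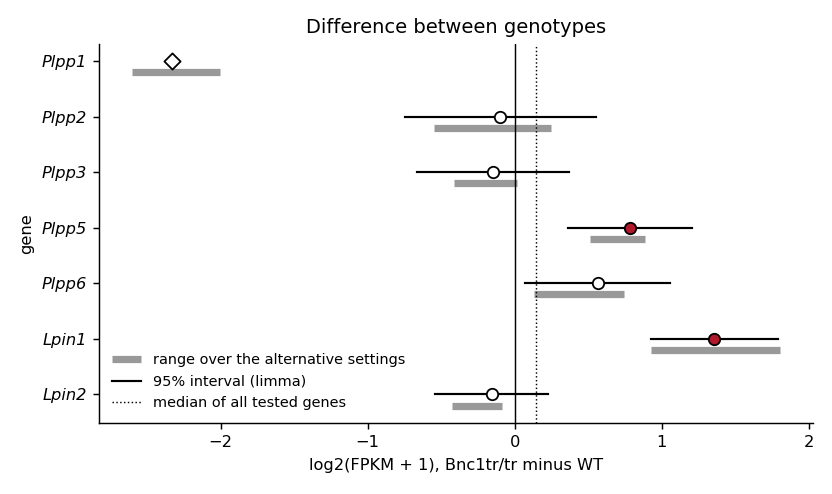
Difference of log2(FPKM + 1), Bnc1tr/tr minus WT, for the 7 genes whose mean reached 1 FPKM, with the 95% interval from limma (thin line), the range over the alternative settings (grey bar), called genes in red and the median of all tested genes as a dotted line. Plpp1 (diamond, no interval because it was selected on this difference) stood at -2.33, while Plpp5 at 0.78 and Lpin1 at 1.36 had intervals above 0.

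The order of levels changed at its top. In WT oocytes it ran from *Plpp1* (178 FPKM) through *Plpp5* (114), *Lpin2* (35.3), *Plpp3* (21.8), *Plpp2* (2.31), *Plpp6* (2.17) and *Lpin1* (1.40) to *Lpin3* (0.27 FPKM). The ranges of *Plpp1*, *Plpp5*, *Lpin2* and *Plpp3* did not overlap each other in WT, whereas those of *Plpp2*, *Plpp6* and *Lpin1* did and leave their order unsettled. In *Bnc1*tr/tr oocytes *Plpp5* (195 FPKM) came first, followed by *Plpp1* (35.9), *Lpin2* (31.5), *Plpp3* (19.1), *Lpin1* (5.22), *Plpp6* (3.71), *Plpp2* (1.93) and *Lpin3* (0.55 FPKM). There the range of *Plpp1* enclosed that of *Lpin2*, and its lowest library, at 21.39 FPKM, was next to the highest of *Plpp3*, at 21.33 FPKM. The ranges of *Lpin1* and *Plpp6* overlapped too.

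Summed over the 5 phospholipid phosphatases, the level was 313.54, 322.21 and 316.61 FPKM in WT and 263.07, 240.59 and 263.23 FPKM in *Bnc1*tr/tr oocytes. Every mutant sum was below every WT sum, but the ratio of the means was only 0.805 (256 ± 13.0 against 317 ± 4.40 FPKM, SD, n = 3 each), a much smaller difference than that of *Plpp1* alone. The 4 genes other than *Plpp1* summed to 163.44, 144.76 and 111.46 FPKM in WT and to 241.68, 201.08 and 216.33 FPKM in *Bnc1*tr/tr oocytes, a ratio of 1.57. The sum over all 5 genes contains the difference that selected *Plpp1*, and no test was run on either sum.

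The make-up of the phosphatase transcripts differed between the 2 genotypes. *Plpp1* made up 47.9%, 55.1% and 64.8% of the summed FPKM in WT and 8.13%, 16.4% and 17.8% in *Bnc1*tr/tr oocytes. *Plpp5* made up 41.6%, 36.6% and 29.2% in WT and 82.4%, 72.6% and 73.5% in *Bnc1*tr/tr oocytes. The pair together held 91.7% ± 2.29 in WT and 90.3% ± 1.18 in *Bnc1*tr/tr oocytes (SD, n = 3 each). *Plpp1* over *Plpp5*, a ratio within a library that does not depend on scaling between libraries, was 1.15, 1.51 and 2.22 in WT and 0.10, 0.23 and 0.24 in *Bnc1*tr/tr oocytes. WT replicate 3 had the highest *Plpp1* and the lowest *Plpp5* level of its group, and *Bnc1*tr/tr replicate 1 had the lowest *Plpp1* and the highest *Plpp5* level of its own.

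**Figure D3:**
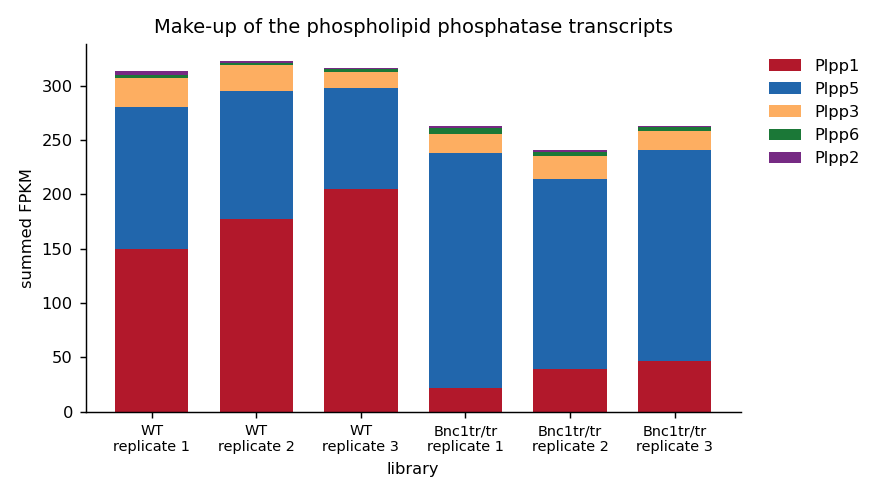
Stacked FPKM of the 5 phospholipid phosphatase genes in each of the 6 libraries (bars from 0, 1 bar per library, colours by gene). Plpp1 and Plpp5 fill most of every bar, with Plpp1 at 47.9% to 64.8% in WT and at 8.13% to 17.8% in Bnc1tr/tr libraries.

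The lipins showed a change in make-up with little change in their sum. They summed to 38.90, 38.86 and 33.03 FPKM in WT and to 42.03, 32.90 and 37.02 FPKM in *Bnc1*tr/tr oocytes, ranges that overlapped, with a ratio of means of 1.01 that fell below 1 under other scalings of the libraries. *Lpin1* made up 3.14%, 3.53% and 4.90% of the sum in WT and 14.4%, 11.8% and 15.6% in *Bnc1*tr/tr oocytes. *Lpin2* made up 95.4% ± 1.09 in WT and 84.6% ± 1.98 in *Bnc1*tr/tr oocytes (SD, n = 3 each), so it remained the main lipin transcript in both.

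Some markers of other ovarian cells differed between the groups as well, in both directions, and these values stand beside every increase named here. The 11 measured granulosa and cumulus markers summed to 22.9 to 40.1 FPKM in WT and 43.3 to 60.5 FPKM in *Bnc1*tr/tr libraries, mostly through *Cyp19a1*. *Cyp19a1* was at 23.45, 28.98 and 17.41 FPKM in WT and at 27.49, 44.41 and 33.46 FPKM in *Bnc1*tr/tr libraries. Its ranges overlapped and it was not called (limma adjusted p = 0.10). Of the 5 granulosa and cumulus markers tested, 2 (*Fshr* and *Kitl*) were called higher and none lower. *Fshr* was at 0.31, 0.74 and 0.00 FPKM in WT and at 4.54, 5.83 and 5.37 FPKM in *Bnc1*tr/tr libraries, and passed the filter only through the latter. *Foxl2*, which defines granulosa cells, was at 0 in 5 of the 6 libraries and at 0.03 FPKM in the other. *Inha* was at 6.78, 3.45 and 0.04 FPKM in WT and at 0.18, 1.81 and 0.09 FPKM in *Bnc1*tr/tr libraries, a log2 difference of -1.11 that was not called (limma adjusted p = 0.24), and the untested *Hsd17b1* and *Fst* also had higher means in WT. The theca and luteal markers summed to 0.71 to 4.17 FPKM in WT and 5.95 to 7.62 FPKM in *Bnc1*tr/tr libraries, mostly through *Cyp11a1*, the only one tested (mean 1.26 and 5.63 FPKM, called higher), while *Hsd3b1* was at 1.53, 1.0 and 0 FPKM in WT and at 0.10, 0 and 0 FPKM in *Bnc1*tr/tr libraries. The stroma markers summed to 1.40 to 2.09 FPKM in WT and 5.46 to 7.46 FPKM in *Bnc1*tr/tr libraries, mostly through *Dcn*. *Dcn*, the only one tested, was called higher (mean 1.62 and 6.11 FPKM). The untested *Pdgfra* was at 0.04, 0.07 and 0.07 FPKM in WT and at 0.63, 0.50 and 0.38 FPKM in *Bnc1*tr/tr libraries. *Col1a1* and *Acta2* were at 0 in every WT library and at most at 0.15 FPKM in *Bnc1*tr/tr libraries. Blood and endothelium markers summed to 11.5 to 14.7 FPKM in WT and 7.75 to 68.3 FPKM in *Bnc1*tr/tr libraries, the highest through *Lyz2* in *Bnc1*tr/tr replicate 2, at 47.97 FPKM, a gene that was not called (limma adjusted p = 0.083). The only called gene of that list was the endothelial *Pecam1*, which fell from 9.11 ± 1.35 to 4.01 ± 1.01 FPKM (SD, n = 3 each). Its log2 fold change was -1.02 (limma adjusted p = 0.0048). *Tek* also had a higher mean in WT and was not called (limma adjusted p = 0.48). Of the 12 markers, 8 were at 0 in every WT library. Among these, the untested *C1qa* was at 1.39, 1.66 and 0.61 FPKM in *Bnc1*tr/tr libraries. The untested endothelial *Kdr* was at 0.10, 0.12 and 0.07 FPKM in WT and at 1.54, 0.64 and 0.53 FPKM in *Bnc1*tr/tr libraries. The part of other cells, and of the larger number of detected genes, in the levels of *Plpp5*, *Lpin1* and the genes below was not tested. Without *Bnc1*tr/tr replicate 2, *Plpp5* and *Lpin1* were both still called. *Fshr*, *Cyp11a1* and *Dcn* were higher in every *Bnc1*tr/tr library than in any WT library, so leaving out 1 library cannot settle the part of other cells.

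The other genes around phosphatidate were taken from 8 lists with 85 genes, of which 79 were listed and 53 passed the filter on low values. Of these 53 genes, 17 rose and 1 fell in *Bnc1*tr/tr oocytes, which is 32.1% and 1.89%, beside 24.1% and 7.68% of all tested genes. The split depended on the scaling of the libraries. It was 10 higher and 4 lower with median-ratio scaling, 10 and 5 with upper-quartile scaling and 9 and 6 with quantile normalization, settings under which 58.9%, 50.1% and 46.6% of all changed genes were higher, against 75.8% with the values as deposited. The calls of *Sgpp1*, *Dgke*, *Etnk1*, *Cds2*, *Crls1* and *Cnep1r1* given below were lost under each of these 3 scalings. That of *Lpar1* was lost with quantile normalization or without *Bnc1*tr/tr replicate 1 or 2, and that of *Dgkd* without *Bnc1*tr/tr replicate 2 or 3 or WT replicate 2. *Sgms2*, *Gpat3*, *Gpat4*, *Pld2*, *Mogat1*, *Chpt1* and *Ptdss2* stayed called in every alternative that tested them. The WT means of *Mogat1*, *Gpat3*, *Sgpp1* and *Chpt1* were under 1 FPKM (0.05, 0.56, 0.70 and 0.96 in this order). Those genes passed the filter only through their *Bnc1*tr/tr levels, so their calls and p-values are given as description only.

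Enzymes that make phosphatidate by acylation showed 3 increases and no decrease among 7 tested genes, with a median log2 difference of 0.08. For this and the other lists the background over all tested genes is 24.1% higher, 7.68% lower and a median of 0.15. The medians for acylation, diacylglycerol use, the CDP-diacylglycerol branch and lysophosphatidate signalling lay below that median, and those of the other lists above it. *Gpat3*, a glycerol-3-phosphate acyltransferase of the endoplasmic reticulum, was at 0.46, 0.56 and 0.65 FPKM in WT and at 9.59, 14.00 and 8.68 FPKM in *Bnc1*tr/tr oocytes, a log2 fold change of 2.89 (limma adjusted p = 1.6e-05). Other genes, mainly 4930458D05Rik, share 32.3% of the *Gpat3* sequence words, so its level is uncertain. *Gpat3* passed the filter only through the *Bnc1*tr/tr libraries. *Gpat4*, its close relative, was at 7.79, 8.11 and 5.70 FPKM in WT and at 41.30, 29.06 and 24.41 FPKM in *Bnc1*tr/tr oocytes, a log2 fold change of 1.97 (limma adjusted p = 2.6e-04). The groups did not overlap for either gene. *Agpat2*, which adds the second acyl chain and was the most abundant of the list in WT, differed by -0.04 (limma adjusted p = 0.90).

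Enzymes that form phosphatidate from existing lipids showed 2 increases and 1 decrease among 7 tested genes, with a median of 0.27. *Pld1*, a phospholipase D and the most abundant of these in WT, was at 163 ± 10.2 FPKM in WT and 171 ± 21.8 FPKM in *Bnc1*tr/tr oocytes (SD, n = 3 each; limma adjusted p = 0.79). Its sign turned under other scalings. *Pld2*, the other phospholipase D at the plasma membrane, rose from 8.39 ± 2.29 to 17.5 ± 1.06 FPKM (log2 fold change 1.01, limma adjusted p = 0.0054). Among the diacylglycerol kinases, which run the reaction of the lipins backwards, *Dgke* rose by 0.58 and *Dgkd* fell by 0.80 on the log2 scale (limma adjusted p = 0.046 and 0.017). *Dgkd* was at 4.74, 4.54 and 4.76 FPKM in WT and at 3.24, 2.19 and 1.58 FPKM in *Bnc1*tr/tr oocytes.

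Enzymes that use diacylglycerol were listed together with monoacylglycerol acyltransferases, which form it. The list showed 3 increases and no decrease among 7 tested genes, with a median of 0.12. *Mogat1*, a monoacylglycerol acyltransferase, was listed at 0, 0.14 and 0 FPKM in WT and at 2.21, 4.22 and 1.69 FPKM in *Bnc1*tr/tr oocytes (limma adjusted p = 7.6e-04). *Chpt1*, the choline phosphotransferase of the Golgi, rose from 0.96 ± 0.161 to 3.18 ± 0.877 FPKM (log2 fold change 1.07, limma adjusted p = 0.0034), and *Selenoi*, an ethanolamine phosphotransferase, rose by 0.91 on the log2 scale (limma adjusted p = 0.0064). *Cept1*, which serves both head groups and was by far the most abundant in WT, was at 163 ± 14.4 FPKM in WT and 169 ± 15.1 FPKM in *Bnc1*tr/tr oocytes (limma adjusted p = 0.86), with a sign that turned under other scalings. Other genes share 23.0% of the sequence words of *Cept1*, 12.4% of those of *Chpt1* and 11.2% of those of *Mogat1*, so these levels are uncertain too. In this list the called genes were low in WT and the main transcript was not called. *Mogat1* and *Chpt1* passed the filter only through the *Bnc1*tr/tr libraries.

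**Figure D4:**
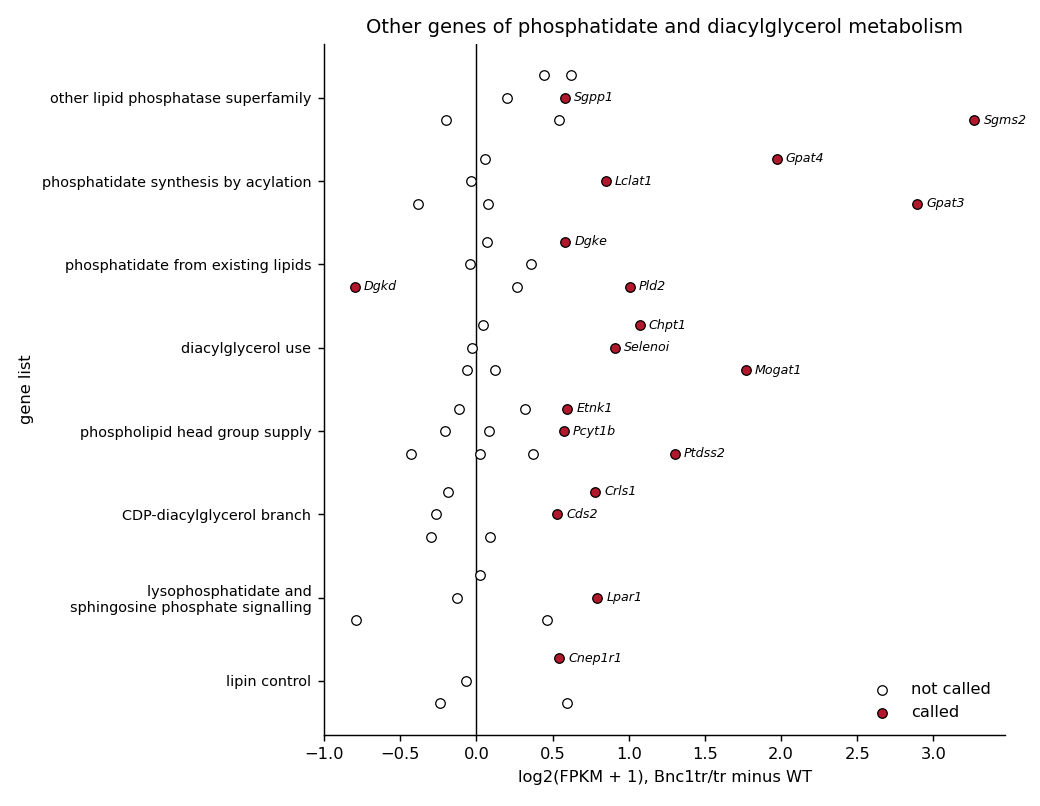
Difference of log2(FPKM + 1), Bnc1tr/tr minus WT, for the 53 tested genes of the 8 lists, 1 point per gene, called genes filled and named, points spread vertically within a list for legibility. Of the 18 called genes 17 lie right of 0, led by Sgms2 at 3.27 and Gpat3 at 2.89, and Dgkd at -0.80 lies left of it. Mogat1, Gpat3, Sgpp1 and Chpt1 passed the filter on low values only through the Bnc1tr/tr libraries.

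The other members of the lipid phosphatase superfamily, a group that also holds related proteins without catalytic residues such as that of *Plppr5*, showed 2 increases among 7 tested genes, with a median of 0.54. *Sgms2*, a sphingomyelin synthase that releases diacylglycerol at the plasma membrane, was at 1.38, 1.69 and 0.95 FPKM in WT and at 16.56, 27.22 and 21.55 FPKM in *Bnc1*tr/tr oocytes. The groups were far apart, with means of 1.34 ± 0.372 and 21.8 ± 5.33 FPKM (SD, n = 3 each) and a log2 fold change of 3.27 (limma adjusted p = 1.3e-05). *Sgpp1*, a sphingosine 1-phosphate phosphatase of the endoplasmic reticulum, rose by 0.58 on the log2 scale (limma adjusted p = 0.037), but passed the filter only through the *Bnc1*tr/tr libraries. *Samd8*, a ceramide phosphoethanolamine synthase and the most abundant of the list in WT, differed by -0.20 (limma adjusted p = 0.45). The closest paralogs outside the 8 genes, *Plpp4* and *Plpp7*, had means of 1.79 and 1.76 FPKM in WT and 2.75 and 2.05 FPKM in *Bnc1*tr/tr oocytes, and neither was called (limma adjusted p = 0.27 and 0.58).

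Among genes that supply head groups for phosphatidylcholine and phosphatidylethanolamine, 3 of 10 tested genes rose and none fell, with a median of 0.20. *Ptdss2*, a phosphatidylserine synthase, rose from 3.47 ± 1.57 to 9.82 ± 2.64 FPKM (log2 fold change 1.30, limma adjusted p = 0.0082), and *Etnk1*, an ethanolamine kinase, rose by 0.60 on the log2 scale (limma adjusted p = 0.042). *Pemt*, which methylates phosphatidylethanolamine and led the list in WT, differed by 0.37 (limma adjusted p = 0.32).

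On the CDP-diacylglycerol branch, which competes with the lipins for phosphatidate, 2 of 6 tested genes rose and none fell, and the median was -0.05. *Crls1*, the cardiolipin synthase, rose from 4.08 ± 1.04 to 7.61 ± 0.945 FPKM (log2 fold change 0.78, limma adjusted p = 0.017). *Cds2*, a CDP-diacylglycerol synthase of the endoplasmic reticulum, rose by 0.53 on the log2 scale (limma adjusted p = 0.049), and *Tamm41*, its mitochondrial counterpart and the most abundant of the branch in WT, differed by -0.19 (limma adjusted p = 0.42).

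Signalling by lysophosphatidate and sphingosine 1-phosphate, the extracellular substrates of *Plpp1* and *Plpp3*, had 5 tested genes, of which 1 rose and none fell, with a median of 0.02. *Lpar1*, a lysophosphatidate receptor, rose from 4.47 ± 1.32 to 8.30 ± 0.521 FPKM (log2 fold change 0.79, limma adjusted p = 0.019). *Acp6*, a lysophosphatidate phosphatase and the most abundant of the list in WT, differed by -0.13 (limma adjusted p = 0.75). *Enpp2*, the secreted enzyme that makes lysophosphatidate and named here after its values were seen, was at 12.05, 11.36 and 10.52 FPKM in WT and at 10.03, 3.57 and 6.14 FPKM in *Bnc1*tr/tr oocytes. Its groups did not overlap, but its difference of -0.79 did not pass the test (limma adjusted p = 0.067). Among genes that control lipins, 1 of 4 rose, with a median of 0.24. It was *Cnep1r1*, a subunit of the phosphatase that activates lipins, which rose from 10.1 ± 0.838 to 15.2 ± 2.04 FPKM (log2 fold change 0.55, limma adjusted p = 0.036).

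Profiles most like that of *Plpp1* were sought among genes outside the 8 whose mean reached 10 FPKM, by the root mean square difference of log2(FPKM + 1) over the 6 libraries after removal of each gene's own mean. The closest were *LOC677525* (0.236), *Rab5if* (0.259), *Aadac* (0.289), *Xlr5c* (0.298) and *Gnrh1* (0.298). Because *Plpp1* was chosen for its decrease, the lower *Bnc1*tr/tr levels of these genes follow from the choice and are no separate result. *LOC677525* was at 15.81, 23.59 and 19.83 FPKM in WT and at 2.37, 3.97 and 3.54 FPKM in *Bnc1*tr/tr oocytes. *Rab5if*, an endoplasmic reticulum protein gene, was at 115.65, 156.21 and 206.10 FPKM in WT and at 28.78, 37.81 and 55.43 FPKM in *Bnc1*tr/tr oocytes. Like *Plpp1*, *Rab5if*, *Aadac*, *Xlr5c* and *Gnrh1* were highest in WT replicate 3 and lowest in *Bnc1*tr/tr replicate 1, which the choice by profile favours. *Aadac*, a lipid esterase of the endoplasmic reticulum, was at 177.02, 218.90 and 280.54 FPKM in WT and at 43.88, 70.81 and 58.57 FPKM in *Bnc1*tr/tr oocytes. *Gnrh1*, the gonadotropin-releasing hormone gene, was at 629.78, 843.75 and 1011.08 FPKM in WT and at 161.56, 282.94 and 289.07 FPKM in *Bnc1*tr/tr oocytes. *Xlr5c* was at 31.37, 46.51 and 61.33 FPKM in WT and at 7.27, 13.97 and 16.84 FPKM in *Bnc1*tr/tr oocytes, and it shares 90.1% of its sequence words with other genes, mainly *Xlr5b*, so its level may combine copies. *Rab5if* shares 23.2% of its words with other genes. No transcript named *LOC677525* was found in GENCODE M21, so its sharing with other genes was not measured.

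**Figure D5:**
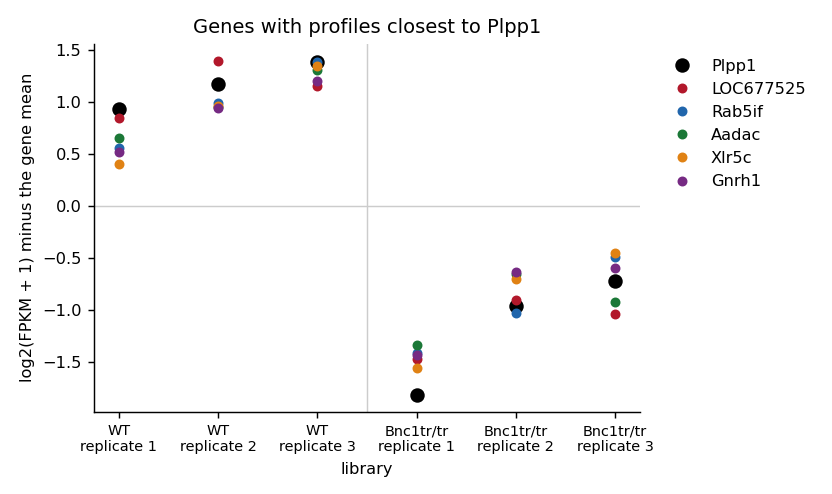
Log2(FPKM + 1) of Plpp1 and of the 5 genes closest to it, each minus its own mean over the 6 libraries, with 1 point per gene and library. All 6 genes lie above 0 in the 3 WT libraries and below 0 in the 3 Bnc1tr/tr libraries, with Plpp1 the lowest in Bnc1tr/tr replicate 1. This shared direction follows from choosing the genes by their likeness to Plpp1.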

How the data were processed

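Polyadenylated RNA of single GV oocytes was reverse-transcribed with a template switch, amplified and made into transposase-based libraries. The authors deposited 1 table per library with gene-level FPKM, rounded to 2 decimals, for the same 17577 genes. Their processing notes name HISAT2 2.0.4, Bowtie2 2.2.5, RSEM 1.2.12 and GRCm38.p6, with no role for each. The annotation and any gene filter are not given in the sources used here, and no counts were used. Since FPKM is a share of the library, other abundant transcripts can move a value.

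Symbols that had turned into dates (25) were restored by Gene ID, and 17470 IDs were found in the RefSeq table. Genes whose mean over the 6 libraries reached 1 FPKM were compared on log2(FPKM + 1), which understates changes of low genes, with limma 3.58.1 (R 4.3.3, 6 libraries, genotype as the only term) and Benjamini-Hochberg adjustment over all 10560 tested genes. A call required an adjusted p under 0.05 together with a log2 difference beyond 0.5 in either direction. The fit was checked on simulated data. The spacing of low values in short genes with 1 transcript gave an estimate of depth. Coding sequences and overlaps came from GENCODE M21 and positions from GRCm38. The coding stretch of *Plpp5* is not reported here.

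The members and gene lists were chosen with earlier results of these data known. Named genes were the 8 members, *Bnc1*, the 5 profiles closest to *Plpp1* and, per list, the most abundant gene in WT and up to 2 called genes with the largest change in each direction. Other genes were named after their values were seen. Alternatives were other pseudocounts, filters, scalings, variance models and thresholds, the replicate number as a block, and leaving out each library.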

Additional observations from a re-analysis of the deposited data

How the results depend on the processing

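*Plpp1* stayed lower, and *Bnc1*, *Plpp5* and *Lpin1* stayed called, in every alternative that included them. Changed genes numbered 3358 (2547 higher, 811 lower). With a minimum mean of 5 FPKM they numbered 2046 with 1413 higher, and called members other than *Plpp1* fell from 2 to 1, because *Lpin1* was no longer tested. Lower genes numbered 1400 with median-ratio scaling, 1804 with upper-quartile scaling and 1877 with quantile normalization, which gave 1637 higher genes. The median log2 difference of all tested genes was 0.15 as deposited, -0.02 with median-ratio and -0.10 with upper-quartile scaling and with quantile normalization. Leaving out 1 library gave 416 to 1037 lower genes, with 416 without WT replicate 2, 523 without *Bnc1*tr/tr replicate 1 and 535 without *Bnc1*tr/tr replicate 3.

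Called genes of the 8 lists numbered 18 (17 higher, 1 lower). They were 11, all higher and 0 lower, with a minimum mean of 5 FPKM, 10 higher and 4 lower with median-ratio, 10 and 5 with upper-quartile scaling, and 9 and 6 with quantile normalization. Leaving out 1 library gave 10 to 19 calls, 10 to 17 higher and 0 to 2 lower, with the fewest (10) without WT replicate 2 and 11 without *Bnc1*tr/tr replicate 2. The log2 difference of the summed phospholipid phosphatases was -0.31, but -0.50 with median-ratio and -0.59 with upper-quartile scaling. That of the summed lipins was 0.01, but -0.17 and -0.26 under these scalings, and -0.0774 to 0.0993 with 1 library left out. It was below 0 without *Bnc1*tr/tr replicate 1 or WT replicate 3 (-0.0774 and -0.0664).

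Differences that turned sign had not been called. *Plpp2* ranged from -0.28 to 0.25 and *Plpp3* from -0.39 to 0.0129 with 1 library left out, above 0 without WT replicate 1 (0.25 and 0.0129) and, for *Plpp2*, without *Bnc1*tr/tr replicate 3 (0.0144). *Pld1* gave -0.12 and *Cept1* -0.14 with median-ratio scaling, and -0.21 and -0.23 with upper-quartile scaling. With 1 library left out, the ranges were -0.0239 to 0.16 for *Pld1*, -0.0252 to 0.11 for *Cept1*, -0.41 to 0.0511 for *Acp6* and -0.16 to 0.0520 for *Agpat2*. Over 27 named genes other than members, 306 of 369 alternative values kept direction and call, 54 lost the call and 9 reversed. The cause was not tested.

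Same-number correlations of deviations were 0.28, -0.03 and 0.12, with a mean of 0.12, beside a mean of -0.06 between different numbers. These values, from 3 libraries per group, cannot settle whether the replicate numbers pair the libraries. With the replicate block 3733 genes were changed, 3320 of them also changed without it, and 2 genes of the lists fell instead of 1. The level of *Lpin3* rested on few fragments, about 6.4 in WT replicate 2, and *Mogat1* was listed at 0 in 2 WT libraries.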
